A study of Mus musculus with 9 samples.

Results

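Integrins are receptors that hold cells to the matrix and to each other, laminins are matrix chains that many of them bind, and both families were measured here in mouse lung by 37 protein-coding genes of the 55851 genes in the deposited table. The members were taken by gene symbol alone: 18 integrin alpha subunits, 8 integrin beta subunits, 5 laminin alpha chains, 3 laminin beta chains and 3 laminin gamma chains. The RNA came from lung cells of female C57BL/6J mice with a time label of 7 weeks, which the labels do not further explain. It was sequenced in 9 libraries, 3 in each of 3 groups. In the DJ-1 KO OVA group (DJ1_KO_OVA_263, DJ1_KO_OVA_266 and DJ1_KO_OVA_267), DJ-1 knockout mice were challenged with ovalbumin (OVA), an egg protein used to model allergic airway inflammation. The WT OVA group (replicates 5, 6 and 9) were wild-type mice given the same challenge, and the WT PBS group (replicates 1, 2 and 3) were wild-type mice given phosphate-buffered saline. DJ-1 is the product of Park7 and guards cells from oxidative damage. The labels describe neither the knockout allele nor a knockout group given saline, so an effect of the genotype alone and an effect of the genotype under challenge cannot be told apart. Nor do they state that every library comes from its own animal, so the p-values cover the spread between libraries only, which may be technical.

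An integrin is a pair of an alpha and a beta subunit that spans the cell membrane, binds matrix or a counter-receptor outside and the cytoskeleton inside. Leukocytes use pairs built on the beta2, beta7 and alpha4 subunits to attach to endothelium and epithelium and to enter the lung, while epithelium, endothelium and fibroblasts hold on to matrix through pairs built mainly on beta1 and alphaV. A laminin is a cross-shaped trimer of an alpha, a beta and a gamma chain that builds the sheet under airway epithelium, alveoli and vessels, and several integrins bind it.

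The 2 neighbouring integrin genes Itgam and Itgax are set side by side first, because they lie in tandem while Itgax rose in the knockout group and Itgam did not pass. Itgam encodes the alphaM chain (CD11b) of neutrophils, monocytes and macrophages. Itgax encodes the alphaX chain (CD11c), found in mice on alveolar macrophages and dendritic cells. Itgam spans chr7:128062640-128118491, Itgax chr7:128129547-128150657 and Itgad chr7:128154376-128223816 on the plus strand of GRCm38.p6, with gaps of 11.1 kb and 3.72 kb between them. The 250 bases before the RefSeq start of Itgam (chr7:128062390-128062639, plus strand) and of Itgax (chr7:128129300-128129549, plus strand) are shown 5′ to 3′, from RefSeq on GRCm38.p6. Capitals mark matches to the motifs searched on both strands.
Itgam: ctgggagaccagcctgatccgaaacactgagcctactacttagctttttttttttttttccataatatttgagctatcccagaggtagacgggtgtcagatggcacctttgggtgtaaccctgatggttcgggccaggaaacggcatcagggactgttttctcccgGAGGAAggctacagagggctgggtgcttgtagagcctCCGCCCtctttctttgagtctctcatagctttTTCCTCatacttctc
Itgax: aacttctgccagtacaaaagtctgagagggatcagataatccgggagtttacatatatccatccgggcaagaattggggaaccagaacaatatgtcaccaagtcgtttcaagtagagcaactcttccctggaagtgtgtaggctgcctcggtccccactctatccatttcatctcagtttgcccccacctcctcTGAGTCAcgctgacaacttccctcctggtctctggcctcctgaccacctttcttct
In the Itgam window the capitals are a GAGGAA match 84 bases before the start, a GC box (GGGCGG, here on the minus strand) 47 bases before it and a second GAGGAA match, on the minus strand, 15 bases before it. GAGGAA is the core bound by the myeloid factor PU.1. The Itgax window held none of these and a single AP-1 match (TGANTCA) 56 bases before the start; the word reads as a match on both strands and was counted once. No match says only that these letters are absent from this window. Windows could be matched for 23 of the 37 members. Of these, 20 started within 1000 bases of the start of the gene in the deposited table, while the windows of Itga9, Lamb3 and Lama2 started 105, 94.3 and 2.82 kb away from it. GAGGAA was in 11 of the 23 windows and in 9 of those 20, against 23.3% of the 32851 windows in the table. All 5 laminin windows matched held it, 3 of them among the 20. The AP-1 word was in 1 of the 23 against 6.75% of all windows, GGGCGG in 8 against 32.7%, the TEAD word CATTCC in 2 against 12.6%, and TATAAA in 0 against 12.4%. None of the 5 motifs overlaps another in the windows shown.

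Values are FPKM, in which the reads of a gene are scaled by its length and by the size of the library, so levels can be compared between genes. Recovered depth was 20812192 to 29080130 reads a library, of which the 37 members took 0.369% to 0.509% in DJ-1 KO OVA, 0.247% to 0.265% in WT OVA and 0.275% to 0.503% in WT PBS. Park7 was at 3.96 to 7.29 FPKM in DJ-1 KO OVA, against 53.1 to 60.5 FPKM in WT OVA and 36.7 to 53.8 FPKM in WT PBS, as the genotype labels say. Markers of leukocytes, epithelium, endothelium and fibroblasts were all measured, as the label of lung cells implies. The knockout libraries differed among themselves in these markers. DJ1_KO_OVA_263 stood apart in summed T cell markers, at 689 FPKM against 199.6 and 216 FPKM in DJ1_KO_OVA_266 and DJ1_KO_OVA_267. Summed endothelial markers were 27.4, 184 and 55.7 FPKM in DJ1_KO_OVA_263, DJ1_KO_OVA_266 and DJ1_KO_OVA_267, with DJ1_KO_OVA_266 the highest. A difference is that of the mean log2(FPKM + 0.5) of 2 groups, with its SE, and understates changes of genes with low values. It was tested with limma in 1 fit over the 17716 genes with a mean of at least 0.2 FPKM, and a gene was called where its p, adjusted by Benjamini-Hochberg, was below 0.05. Of the members, 35 passed that filter. Itga10, a collagen-binding alpha subunit, and Lama1, the alpha chain of embryonic basement membranes, did not; Itga10 held 7 to 54 reads and Lama1 0 to 14 reads a library.

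**Figure D1:**
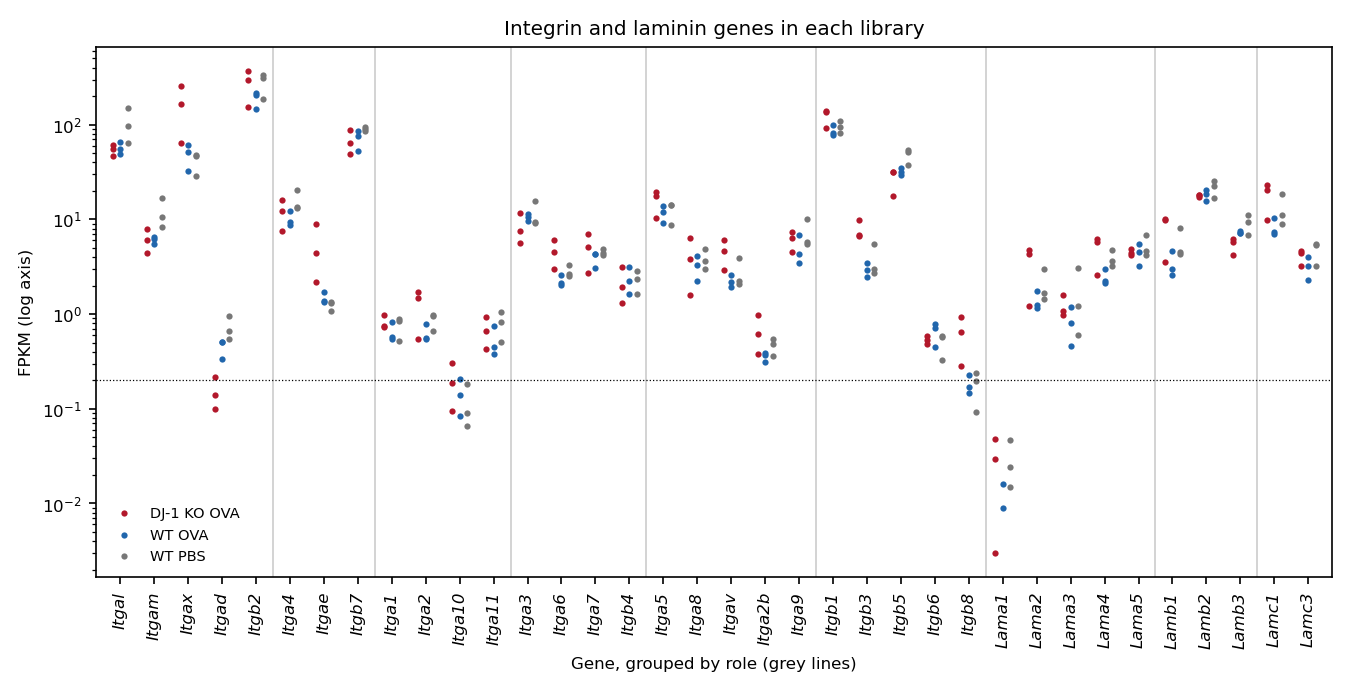
FPKM on a log axis of the integrin and laminin genes reported, in each of the 9 libraries, grouped by role between the grey lines, with the dotted line at 0.2 FPKM; the WT OVA replicate in which Lama1 is listed at 0 cannot be drawn. Itgb2 is the highest in every library, and the knockout points of Itgax, Itgae, Itgb3 and Itga6 lie above both wild-type groups or, for Itga6, above WT OVA.

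The members covered a wide range of levels, led by the subunits that leukocytes share. Itgb2, the beta2 chain that pairs with Itgal, Itgam, Itgax and Itgad, was the highest over all libraries with a mean of 247 FPKM. Itgb1, the partner of most matrix-binding alpha subunits, followed at 101.5 FPKM, then Itgax at 83.9, Itgb7 at 76.1, Itgal at 71.9 and Itgb5 at 35.5 FPKM. Lamb2 was the highest laminin chain at 19.2 FPKM. These 7 members had a mean of at least 20 FPKM in a group, which Lamb2 reached in WT PBS alone, at 21.5 FPKM.

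The first comparison asks how loss of DJ-1 altered these genes in the OVA-challenged lung. In DJ-1 KO OVA against WT OVA, 4 integrin genes rose: Itgax, Itgae, Itgb3 and Itga6. No member fell at the threshold in the limma fit, and no laminin passed. Over all genes tested 5.93% were called higher and 8.24% lower, 14.2% in all. The 35 members tested had a median difference of 0.32, with 25 above 0 and 10 below, beside a median of 0 over all genes. Without overlap between the groups, 6 members were higher and 2 lower, against 18.4% and 18.8% of all genes. At an unadjusted limma p below 0.05 the counts were 10 and 1, against 16.8% and 18.4%. The number called moved when single libraries were left out: it was 0 without DJ1_KO_OVA_267 or without WT OVA replicate 5, 6 or 9, 1 without WT PBS replicate 1 or 2, 2 without WT PBS replicate 3, 3 without DJ1_KO_OVA_263 and 11 without DJ1_KO_OVA_266. The members are long genes, and long genes as a whole were higher in DJ-1 KO OVA. The median listed length was 7015 bases for the members and 3436 bases for all genes tested, and the 5743 genes of at least 5000 bases had a median difference of 0.31, against -0.16 for the shorter genes. With the trend of the difference with length removed, the members' median was 0.03 and Itgb3 alone was called. The median was 0.27 after quantile normalization and 0.80 with libraries scaled to equal FPKM sums, where the median of all genes was 0.46.

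**Figure D2:**
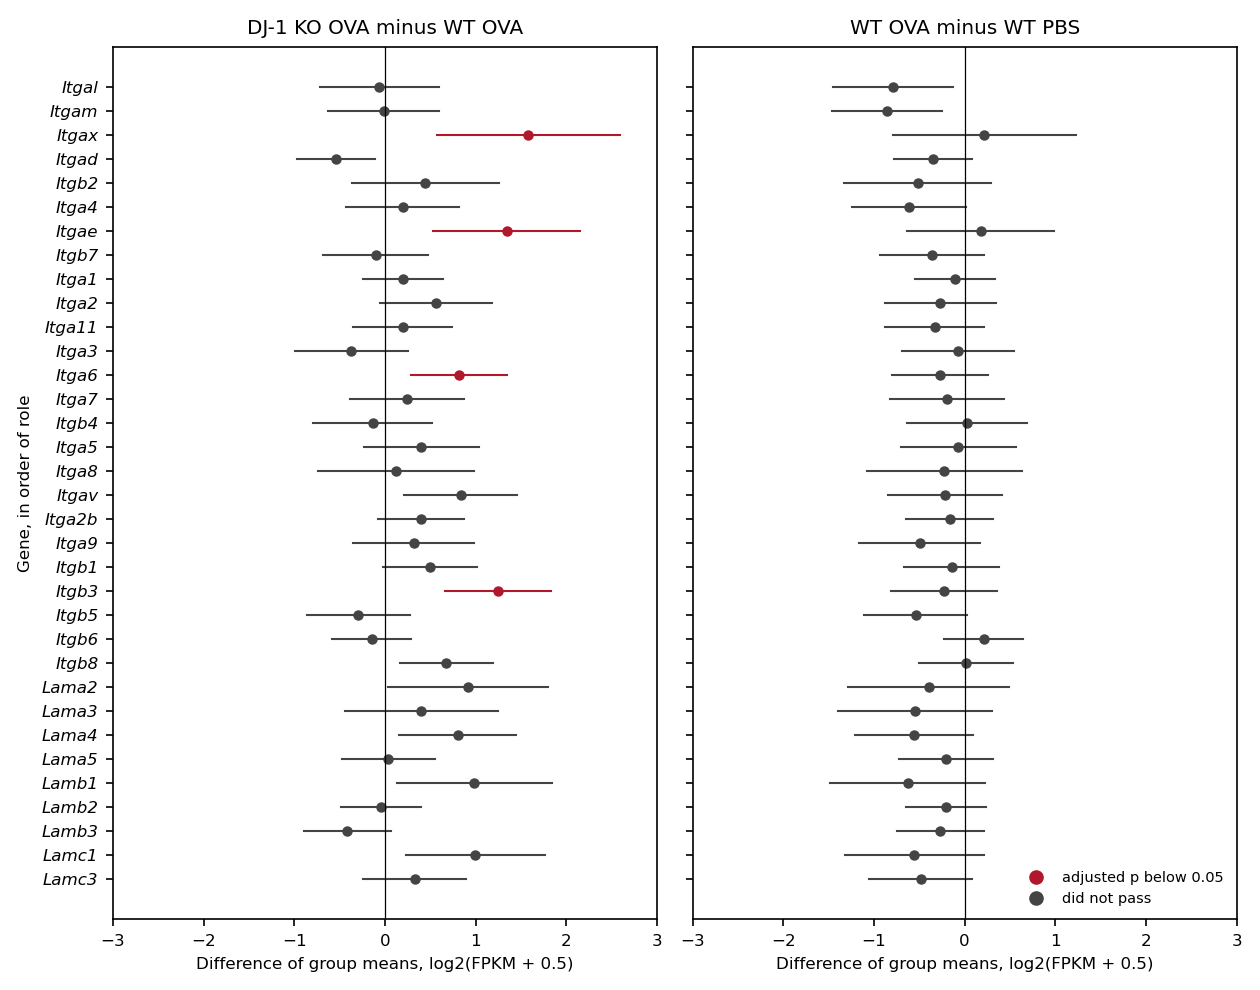
Difference of mean log2(FPKM + 0.5) for the genes tested and reported, with its 95% interval, for DJ-1 KO OVA minus WT OVA (left) and WT OVA minus WT PBS (right); red marks an adjusted p below 0.05. On the left 4 integrins are red, with Itgax farthest to the right at 1.58, and on the right none is.

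Itgax was the integrin alpha subunit with the largest difference. Its level was 64.6, 167 and 256 FPKM in DJ1_KO_OVA_263, DJ1_KO_OVA_266 and DJ1_KO_OVA_267, against 60.7, 32.3 and 51.3 FPKM in WT OVA replicates 5, 6 and 9. It was 46.5, 28.7 and 47.9 FPKM in WT PBS. DJ1_KO_OVA_266 and DJ1_KO_OVA_267 were far above every wild-type library, and DJ1_KO_OVA_263 lay just above the highest of them. The difference was 1.58 ± 0.46 (SE), a fold of 3.00, with a limma adjusted p of 0.0453. It kept its direction in every alternative run, but the adjusted p was above 0.05 when any single library other than DJ1_KO_OVA_263 was left out, and was 0.161 without DJ1_KO_OVA_267.

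The other genes of the beta2 group did not pass in the limma fit. Itgam was at 4.45, 6.04 and 7.98 FPKM in DJ-1 KO OVA, against 6.17, 5.53 and 6.54 FPKM in WT OVA, with a difference of -0.01 ± 0.28. Itgal, the alphaL chain of LFA-1 on lymphocytes and other leukocytes, was at 61.6, 46.5 and 55.5 FPKM in DJ-1 KO OVA, against 55.9, 49.3 and 65.5 FPKM in WT OVA. Its groups overlapped, with a difference of -0.06 ± 0.30. The shared partner Itgb2 was at 152, 299 and 368 FPKM in DJ-1 KO OVA, against 218, 148 and 206 FPKM in WT OVA. Its high libraries were DJ1_KO_OVA_266 and DJ1_KO_OVA_267, where Itgax was high too, but the groups overlapped and the difference of 0.44 ± 0.37 did not pass (limma adjusted p = 0.403). Itgad, the alphaD chain of some macrophages, was the member with the lowest difference, -0.54 ± 0.19, and its groups did not overlap. It was at 0.22, 0.14 and 0.10 FPKM in DJ-1 KO OVA, against 0.51, 0.51 and 0.34 FPKM in WT OVA, which is 34, 15 and 11 reads against 44, 53 and 30. The limma adjusted p was 0.0790, and 0.0346 in a limma-voom fit of the recovered reads. Itgad overlaps Cox6a2 on the opposite strand, with a mean of 334 reads beside its own 47, and the sources used here do not say if reads were counted by strand.

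Markers of leukocytes and of proliferating cells differed between the OVA groups in both directions, while Itgam, Itgal, Itgb2 and Itgad did not pass. Over all genes tested 5.93% were called higher and 8.24% lower. Of 10 T cell markers 4 rose in DJ-1 KO OVA against WT OVA and all 10 had a difference above 0. Of 5 eosinophil markers tested 0 passed. Of 11 neutrophil markers 8 fell in DJ-1 KO OVA against WT OVA and 0 rose, with a median difference of -2.24, and their summed level was 1469 to 4480 FPKM in DJ-1 KO OVA against 13289 to 19572 FPKM in WT OVA. Ly6g, the neutrophil surface marker, fell by 2.39 on the log2 scale (limma adjusted p = 0.00181) and S100a8, a calcium-binding protein abundant in neutrophils, by 3.17 (limma adjusted p = 0.0130). Of 10 markers of monocytes and interstitial macrophages 1 fell and 9 had a difference below 0, with a sum of 254.5 to 1156 FPKM in DJ-1 KO OVA against 567 to 976 FPKM in WT OVA. Of 9 B cell markers 4 fell, with a sum of 105 to 248 FPKM in DJ-1 KO OVA against 292 to 390 FPKM in WT OVA. Of 8 markers of proliferating cells 6 rose, with a sum of 118 to 213 FPKM in DJ-1 KO OVA against 67.6 to 98.0 FPKM in WT OVA. Leaving out single libraries gave 3 to 9 neutrophil and 0 to 5 B cell markers lower and 1 to 6 proliferation markers higher, the fewest of each without DJ1_KO_OVA_267 and, for B cells, also 0 without any WT OVA replicate. No marker of the neutrophil, B cell and proliferating cell lists was below 0.2 FPKM in every library. The part of these cells in the levels of Itgam, Itgal, Itgad and Itgb2 was not tested.

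The make-up of the alpha subunits differed by library. Itgax was 32.2%, 58.6% and 65.4% of the summed alpha-subunit FPKM in DJ1_KO_OVA_263, DJ1_KO_OVA_266 and DJ1_KO_OVA_267, against 34.7%, 22.9% and 29.1% in WT OVA and 21.8%, 18.5% and 16.0% in WT PBS. Itgal was 30.7%, 16.3% and 14.2% in DJ-1 KO OVA, against 32.0%, 34.9% and 37.2% in WT OVA and 45.5%, 41.1% and 50.7% in WT PBS. The ratio of Itgax to Itgam, 2 neighbouring genes, was 14.5, 27.6 and 32.1 in DJ-1 KO OVA, against 9.83, 5.84 and 7.84 in WT OVA and 4.41, 3.48 and 2.84 in WT PBS. On that ratio the 3 groups did not overlap, although Itgax itself overlapped between WT OVA and WT PBS and Itgam between the OVA groups. The ratio was chosen after its values could be seen and was given no test.

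**Figure D3:**
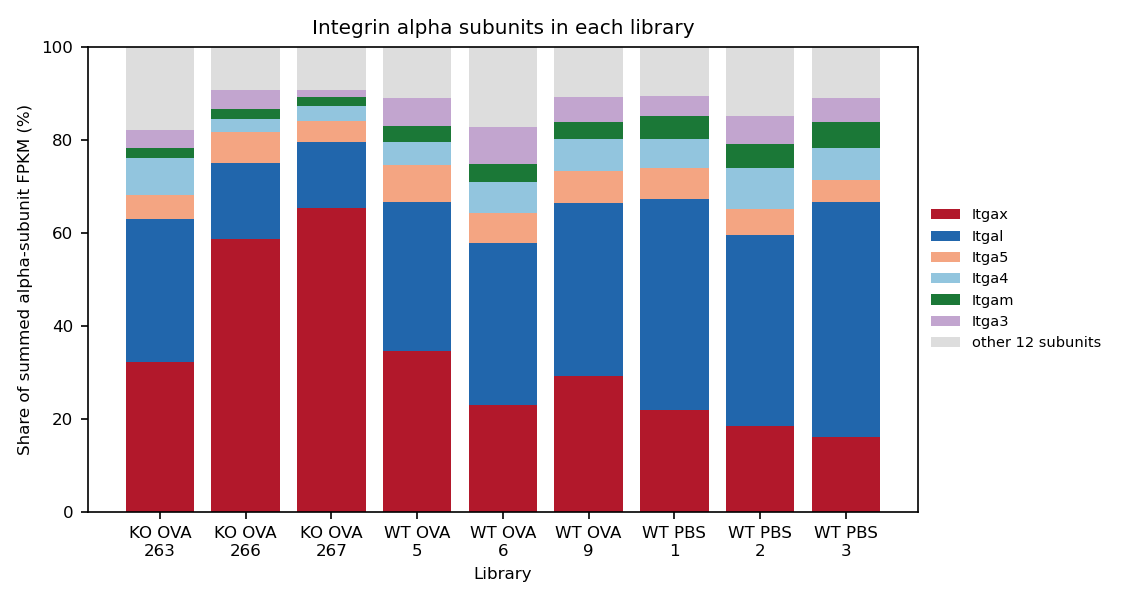
Share in percent of each integrin alpha subunit in the summed FPKM of all 18 in each library, with the 12 lowest summed. Itgax takes 58.6% and 65.4% in DJ1_KO_OVA_266 and DJ1_KO_OVA_267 and at most 34.7% in the other libraries, while Itgal takes the larger part in the WT PBS libraries.

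Itgae encodes the alphaE chain (CD103), which pairs with beta7, binds E-cadherin and marks a set of lung dendritic cells and tissue-resident T cells; the gene spans chr11:73090583-73147446 on the plus strand. Itgae was at 2.19, 4.45 and 8.92 FPKM in DJ1_KO_OVA_263, DJ1_KO_OVA_266 and DJ1_KO_OVA_267, against 1.73, 1.38 and 1.33 FPKM in WT OVA and 1.08, 1.35 and 1.31 FPKM in WT PBS. All 3 knockout libraries were above all 6 wild-type libraries, in the same order of libraries as for Itgax. It rose 2.54-fold, a difference of 1.34 ± 0.37 with a limma adjusted p of 0.0392. Without DJ1_KO_OVA_267 the difference was 0.89 with an adjusted p of 0.115, and the call was also lost without any WT OVA replicate or without WT PBS replicate 1 or 2. Its partner Itgb7 was at 49.5, 87.5 and 63.9 FPKM in DJ-1 KO OVA, against 85.1, 52.8 and 76.2 FPKM in WT OVA, and its groups overlapped. Itga4, the other partner of beta7 and the receptor chain for VCAM-1, was at 16.0, 7.58 and 12.2 FPKM in DJ-1 KO OVA, against 8.65, 9.29 and 12.1 FPKM in WT OVA. Its difference of 0.19 ± 0.28 did not pass. Cdh1, which encodes E-cadherin, the ligand of alphaE beta7, rose 2.08-fold in the same comparison (1.05 ± 0.28, limma adjusted p = 0.0361).

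Markers of the cells that carry CD11c and CD103 moved unevenly, beside 5.93% of all genes called higher and 8.24% lower. Of 8 dendritic cell markers 0 passed, with a summed level of 79.8 to 199 FPKM in DJ-1 KO OVA against 115 to 154 FPKM in WT OVA, and the knockout library with the least was DJ1_KO_OVA_263. Of 9 alveolar macrophage markers 3 fell and 7 had a difference below 0. Their summed level of 613 to 2494 FPKM in DJ-1 KO OVA overlapped that of 1329.5 to 2390.0 FPKM in WT OVA, but most of it was Ear2, and without Ear2 it was 150 to 357 FPKM in DJ-1 KO OVA against 476 to 625 FPKM in WT OVA. The list's mean log2(FPKM + 0.5) was 3.90 to 5.14 in DJ-1 KO OVA against 5.80 to 6.21 in WT OVA, also without overlap. Of 10 T cell markers 4 rose, with a summed level of 199.6 to 689 FPKM in DJ-1 KO OVA against 119 to 183 FPKM in WT OVA. DJ1_KO_OVA_263 had the most T cell marker RNA, for instance 83.0 FPKM of Cd8a against 6.26 and 6.28 FPKM in DJ1_KO_OVA_266 and DJ1_KO_OVA_267, and the lowest Itgae of the knockout libraries. Leaving out single libraries gave 0 to 2 dendritic cell markers higher, 3 to 4 alveolar macrophage markers lower and 0 to 6 T cell markers higher, with 0 of the T cell markers without DJ1_KO_OVA_267 or any WT OVA replicate and 1 without DJ1_KO_OVA_263. No marker of these 3 lists was below 0.2 FPKM in every library. In bulk RNA, fewer cells of a type and less RNA per cell cannot be told apart, and the part of these markers in the integrin differences was not tested.

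Itgb3 (chr11:104608000-104670476, plus strand) had the smallest p of the members. It encodes the beta3 chain, which pairs with alphaV on macrophages, endothelium and other cells and with alphaIIb on platelets, and binds fibronectin, vitronectin and osteopontin. It was at 6.68, 6.81 and 9.82 FPKM in DJ1_KO_OVA_263, DJ1_KO_OVA_266 and DJ1_KO_OVA_267, against 2.95, 2.49 and 3.46 FPKM in WT OVA and 2.96, 2.69 and 5.46 FPKM in WT PBS. All 3 knockout libraries were above all 6 wild-type libraries, and DJ1_KO_OVA_267 was the highest. The difference was 1.24 ± 0.26, a 2.37-fold rise with a limma adjusted p of 0.0203. The adjusted p was above 0.05 without DJ1_KO_OVA_267, where it was 0.0860, and without WT OVA replicate 5, 6 or 9. Its partner Itgav was at 4.61, 2.90 and 6.09 FPKM in DJ-1 KO OVA, against 1.94, 2.18 and 2.59 FPKM in WT OVA. These groups did not overlap either, but the difference of 0.83 ± 0.28 did not pass (limma adjusted p = 0.0684). The platelet partner Itga2b was at 0.38, 0.98 and 0.61 FPKM in DJ-1 KO OVA, against 0.39, 0.31 and 0.37 FPKM in WT OVA, with overlap. Of the 5 platelet markers tested 0 passed; their list summed to 12.8 to 68.2 FPKM in DJ-1 KO OVA and 61.4 to 92.8 FPKM in WT OVA, with Gp6 and Treml1 among those below 0.2 FPKM in every library.

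The beta subunits that share alphaV were not alike. Itgb5 was at 17.6, 31.5 and 31.8 FPKM in DJ-1 KO OVA, against 34.6, 32.0 and 29.7 FPKM in WT OVA, with a difference of -0.29 ± 0.26. Itgb3 over Itgb5 was 0.38, 0.22 and 0.31 in DJ-1 KO OVA, against 0.09, 0.08 and 0.12 in WT OVA. Itgb8, which with alphaV activates latent TGF-beta, was at 0.65, 0.28 and 0.92 FPKM in DJ-1 KO OVA, against 0.15, 0.17 and 0.23 FPKM in WT OVA. Its groups did not overlap, and its difference of 0.68 ± 0.23 did not pass (limma adjusted p = 0.0705). Itgb6, the epithelial beta subunit that also activates TGF-beta, was at 0.49 to 0.58 FPKM in DJ-1 KO OVA and 0.45 to 0.79 FPKM in WT OVA. Itgb1 was at 136, 92.9 and 140 FPKM in DJ-1 KO OVA, against 77.8, 81.1 and 99.4 FPKM in WT OVA. DJ1_KO_OVA_266 lay within the wild-type range and the other knockout libraries above it (0.50 ± 0.24, limma adjusted p = 0.157).

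Itga6 (chr2:71745616-71858416, plus strand) encodes the alpha6 chain, a laminin receptor of epithelium, endothelium and platelets that pairs with beta1 or, in hemidesmosomes, with beta4. It was at 6.06, 2.96 and 4.49 FPKM in DJ1_KO_OVA_263, DJ1_KO_OVA_266 and DJ1_KO_OVA_267, against 2.03, 2.59 and 2.14 FPKM in WT OVA and 2.55, 2.63 and 3.27 FPKM in WT PBS. The knockout libraries were above all WT OVA libraries, with DJ1_KO_OVA_266 nearest to them and below the highest WT PBS library. It rose 1.77-fold (0.82 ± 0.24, limma adjusted p = 0.0468). The adjusted p was above 0.05 with any library but DJ1_KO_OVA_266 left out and reached 0.148 without DJ1_KO_OVA_267. Itga3, the other main epithelial laminin receptor chain, was at 7.59, 11.8 and 5.69 FPKM in DJ-1 KO OVA, against 10.6, 11.4 and 9.57 FPKM in WT OVA, with a difference of -0.37 ± 0.28. The ratio of Itga6 to Itga3 was 0.80, 0.25 and 0.79 in DJ-1 KO OVA, against 0.19, 0.23 and 0.22 in WT OVA. Itgb4 and Itga7, the laminin receptor chain of muscle, overlapped between the groups, with differences of -0.14 ± 0.30 and 0.24 ± 0.28. Of 6 airway basal cell markers, cells that carry alpha6 beta4, 5 were tested and 0 passed; their sum was 13.8 to 23.6 FPKM in DJ-1 KO OVA and 5.91 to 15.9 FPKM in WT OVA, and Trp63 was below 0.2 FPKM in every library.

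**Figure D4:**
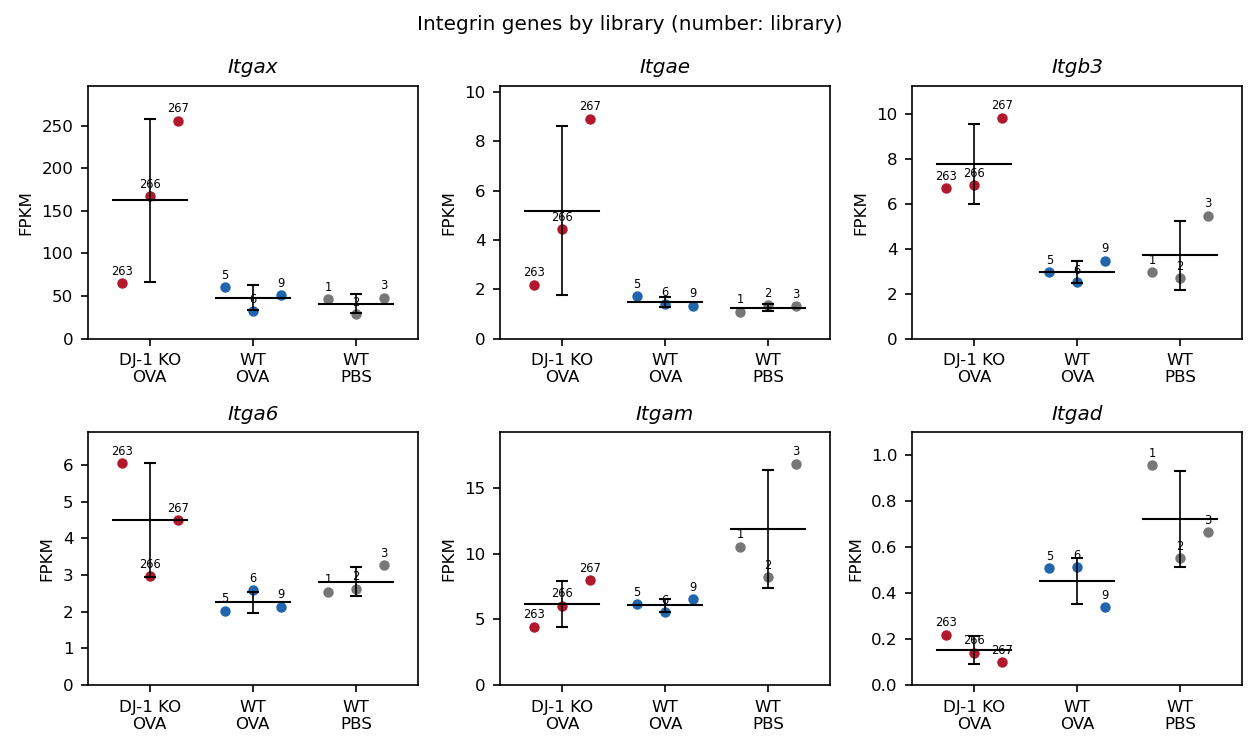
FPKM of the 4 integrin genes called in DJ-1 KO OVA against WT OVA and of Itgam and Itgad, with a point for each library, its number beside it, the group mean as a line and the SD as a bar (n = 3). Itgax and Itgae are highest in DJ1_KO_OVA_266 and DJ1_KO_OVA_267, Itga6 in DJ1_KO_OVA_263 and DJ1_KO_OVA_267, and Itgam is highest in WT PBS.

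The remaining integrins did not pass in this comparison. The 3 collagen-binding alpha subunits tested, Itga1, Itga2 and Itga11, had differences of 0.20, 0.56 and 0.19. Itga2 was at 1.71, 0.55 and 1.49 FPKM in DJ-1 KO OVA, against 0.56, 0.54 and 0.79 FPKM in WT OVA, with DJ1_KO_OVA_266 again in the wild-type range. Itga5, the fibronectin receptor chain, was at 10.4 to 19.5 FPKM in DJ-1 KO OVA and 9.16 to 13.9 FPKM in WT OVA. Itga8, a chain of mesenchymal cells, had a difference of 0.12 ± 0.39. Itga9, a receptor chain for tenascin-C and VCAM-1, had a difference of 0.32 ± 0.30.

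No laminin chain passed, by limma or by limma-voom. At an unadjusted limma p below 0.05, 4 of the 10 tested were higher and 0 lower, against 16.8% and 18.4% of all genes. The tested chains have listed lengths of 6082 to 16605 bases, and genes of at least 5000 bases had a median difference of 0.31. The chains divided into those with wide and those with narrow spread in the knockout group. Lama2, Lama4, Lamb1 and Lamc1, chains made largely by mesenchymal and endothelial cells, were above WT OVA in DJ1_KO_OVA_263 and DJ1_KO_OVA_267. In DJ1_KO_OVA_266 they were within the WT OVA range. Against WT PBS these 4 chains overlapped and did not pass, with differences of 0.52, 0.24, 0.35 and 0.44. WT PBS replicate 3 held Lamb1 at 8.06 and Lamc1 at 18.3 FPKM. Of the 10 laminin chains tested, 4 differences were above 0 and 6 below against WT PBS. Lamc1, the gamma chain of most laminins, was at 20.4, 9.88 and 23.1 FPKM in DJ1_KO_OVA_263, DJ1_KO_OVA_266 and DJ1_KO_OVA_267, against 7.40, 10.4 and 6.99 FPKM in WT OVA (1.00 ± 0.35, limma adjusted p = 0.0731). Lamb1 was at 9.78, 3.53 and 9.98 FPKM in DJ-1 KO OVA, against 3.00, 4.69 and 2.58 FPKM in WT OVA (0.98 ± 0.39, limma adjusted p = 0.0999). The same split between libraries is seen in both. Lama4, the alpha chain of vessels, was at 5.79, 2.61 and 6.23 FPKM in DJ-1 KO OVA, against 2.22, 2.97 and 2.14 FPKM in WT OVA (0.80 ± 0.29, limma adjusted p = 0.0832). Lama2, the alpha chain around muscle and nerve, was at 4.29, 1.22 and 4.79 FPKM in DJ-1 KO OVA, against 1.25, 1.75 and 1.15 FPKM in WT OVA (0.92 ± 0.40, limma adjusted p = 0.132). Leaving out DJ1_KO_OVA_266 brought all 4 past the threshold, together with Itgav, Itgb1, Itgb8 and Itga2; that library was singled out after its values were seen.

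**Figure D5:**
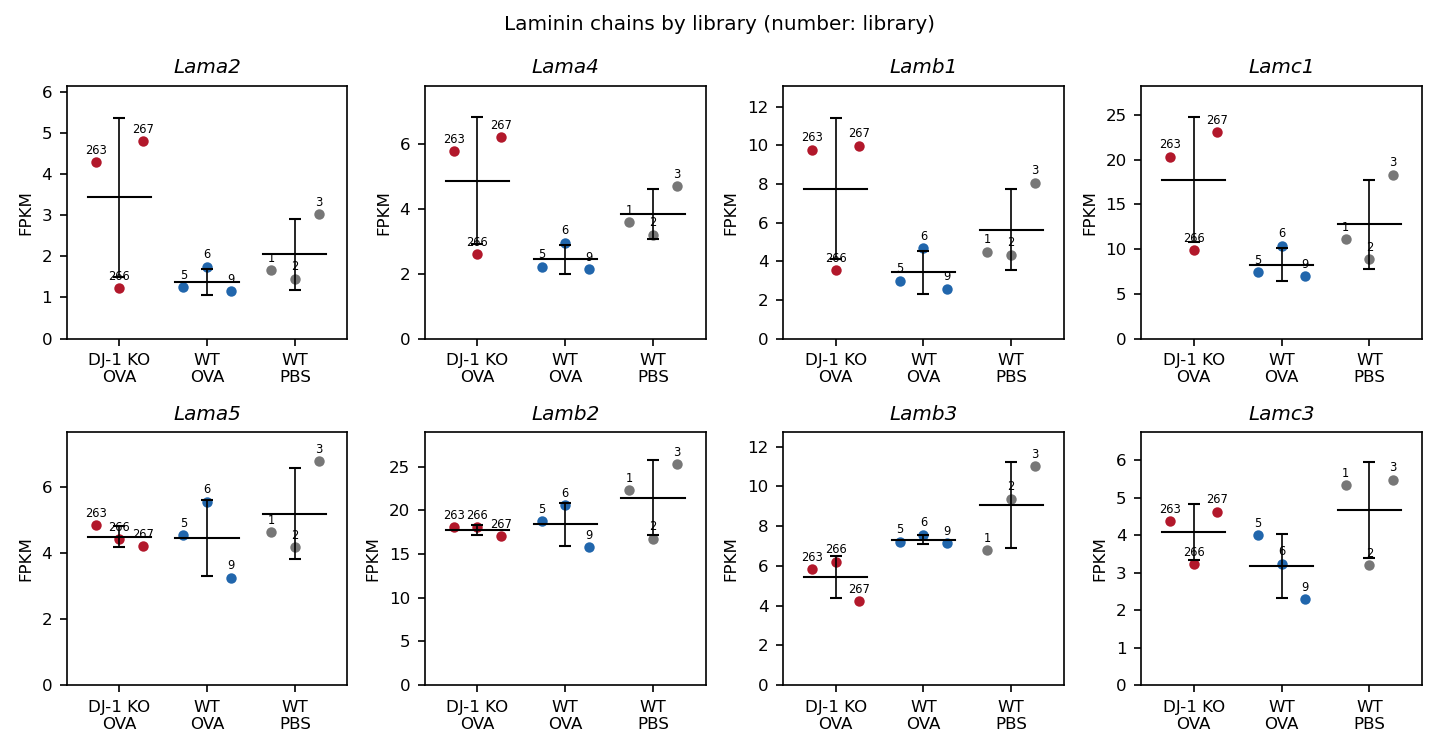
FPKM of 8 laminin chains with a point for each library, its number beside it, the group mean as a line and the SD as a bar (n = 3). In the upper row DJ1_KO_OVA_263 and DJ1_KO_OVA_267 stand above WT OVA and DJ1_KO_OVA_266 does not; in the lower row Lama5, Lamb2 and Lamc3 overlap between the OVA groups and Lamb3 does not.

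Of the other laminin chains reported, Lamb2 and Lama5 were nearly level, while Lamb3, Lama3 and Lamc3 had larger differences that did not pass. Lamb2 was at 18.0, 18.1 and 17.1 FPKM in DJ-1 KO OVA, against 18.8, 20.6 and 15.8 FPKM in WT OVA, with a difference of -0.04 ± 0.20 and a 95% interval of -0.48 to 0.40. Lama5, the main alpha chain under adult lung epithelium, was at 4.83, 4.42 and 4.20 FPKM in DJ-1 KO OVA, against 4.54, 5.55 and 3.25 FPKM in WT OVA, with a difference of 0.04 and an interval of -0.48 to 0.55. Lamb3, a beta chain found under basal epithelial cells, was at 5.83, 6.21 and 4.22 FPKM in DJ-1 KO OVA, against 7.22, 7.57 and 7.14 FPKM in WT OVA. All 3 knockout libraries were lower, but the difference of -0.42 ± 0.22 did not pass (limma adjusted p = 0.193), and Lamb3 overlaps G0s2 and Hsd11b1 on the opposite strand, with means of 6188 and 2087 reads beside its own 1160. Lama3 had a difference of 0.40 ± 0.38 and Lamc3 of 0.33 ± 0.26. The ratio of Lamb1 to Lamb2 was 0.54, 0.20 and 0.58 in DJ-1 KO OVA, against 0.16, 0.23 and 0.16 in WT OVA, and that of Lama4 to Lama5 was 1.20, 0.59 and 1.48 against 0.49, 0.53 and 0.66.

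Markers of fibroblasts and endothelium did not share one pattern over these libraries. Of 10 fibroblast markers 2 rose, the collagen genes Col1a1 and Col1a2, and 0 fell, with a median difference of 0.06. Over all genes tested 5.93% were called higher and 8.24% lower. Col1a1 was at 136, 143 and 291 FPKM in DJ1_KO_OVA_263, DJ1_KO_OVA_266 and DJ1_KO_OVA_267, against 52.4 to 65.0 FPKM in WT OVA. It was thus above WT OVA in DJ1_KO_OVA_266 too, where the 4 laminin chains were not. The list summed to 504, 398 and 694 FPKM in the knockout libraries, against 399 to 463 FPKM in WT OVA; without the 2 collagen genes it summed to 289, 189 and 268 FPKM, against 298 to 374 FPKM, lower in all 3. Dcn, the matrix proteoglycan decorin, was at 101.4, 43.6 and 76.5 FPKM in DJ-1 KO OVA, against 104 to 137 FPKM in WT OVA. Dpt, dermatopontin, did not overlap either. The differences of Dcn and Dpt were -0.72 ± 0.32 and -0.52 ± 0.23 and did not pass. These 2 genes made up most of the sum without the collagen genes, so that sum does not stand for the whole list. Over the 10 fibroblast markers, 6 differences were above 0 and 4 below. Of 10 endothelial markers 1 fell and all 10 had a difference below 0; their sum was 27.4, 184 and 55.7 FPKM in the knockout libraries, against 121 to 183 FPKM in WT OVA. The endothelial sum was thus low in DJ1_KO_OVA_263 and DJ1_KO_OVA_267, where the 4 laminin chains were high. Leaving out single libraries gave 0 to 3 fibroblast markers higher, with 0 without WT OVA replicate 6 or 9, and 0 to 8 endothelial markers lower, with 8 without DJ1_KO_OVA_266 and 0 without any other library but WT PBS replicate 3. The part of these cells in the laminin differences was not tested. No marker of either list was below 0.2 FPKM in every library.

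The genes around the receptors and the trimers were read in the same comparison. Of 25 integrin ligands tested, 9 rose and 1 fell, against 5.93% and 8.24% of all genes. Genes of at least 5000 bases had a median difference of 0.31, and the part of gene length in these counts was not tested. Fn1, which encodes fibronectin, rose 5.33-fold (2.42 ± 0.40, limma adjusted p = 0.00923), and Col3a1, a fibrillar collagen, 4.32-fold (2.11 ± 0.34, limma adjusted p = 0.00866). Fn1 was at 152, 207 and 381 FPKM in DJ-1 KO OVA, against 60.8, 29.4 and 42.9 FPKM in WT OVA. Spp1, which encodes osteopontin, a ligand of alphaV beta3, was at 67.3, 233 and 270.1 FPKM in DJ-1 KO OVA, against 37.6, 34.9 and 41.9 FPKM in WT OVA, a rise of 4.21-fold. For Fn1 and Spp1 every knockout library was above every wild-type library. Fbn1, Col1a1, Col1a2, Tnc, Ltbp1 and Cdh1 also rose, by 1.73 to 3.59-fold, and F11r, a junction molecule bound by LFA-1, fell by 0.65 on the log2 scale (limma adjusted p = 0.0408). Vcam1 and Icam1, the counter-receptors of alpha4 beta1 and of the beta2 integrins, had differences of 0.14 ± 0.18 and 0.16 ± 0.24. The count of ligands higher was 3 without DJ1_KO_OVA_267 or without WT OVA replicate 6 or 9 and 4 without WT OVA replicate 5. The call of F11r was lost without DJ1_KO_OVA_263, DJ1_KO_OVA_267, any WT OVA replicate or WT PBS replicate 1, and 2 ligands were lower without DJ1_KO_OVA_266. Col1a1 and Col1a2 are also on the fibroblast list.

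On the inner side of the receptor few genes passed. Of 27 genes of integrin activation and adhesion machinery 0 rose and 1 fell, against 5.93% and 8.24% of all genes. The gene that fell was Rap1a, a small GTPase that switches integrins on (-0.97 ± 0.27, limma adjusted p = 0.0406). The list's median difference was -0.07. At an unadjusted limma p below 0.05 the counts were 1 higher and 5 lower, against 16.8% and 18.4% of all genes. Tln1, talin, was at 45.1, 52.5 and 51.1 FPKM in DJ-1 KO OVA, against 41.7, 36.0 and 40.8 FPKM in WT OVA, without overlap but not called (0.32 ± 0.25). The call of Rap1a was lost without DJ1_KO_OVA_263 or DJ1_KO_OVA_267, without any WT OVA replicate and without WT PBS replicate 1, where the count of genes lower was 0, and without DJ1_KO_OVA_266 it was 4, with 1 gene higher.

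Among 19 basement membrane partners of laminin, all had a difference above 0, but only Col15a1 was called, against 5.93% of all genes called higher. Without overlap between the groups 8 were higher, against 18.4% of all genes. Against WT PBS 12 differences were above 0 and 7 below, with a median of 0.15, 1 higher without overlap and 0 called. Col15a1, a collagen beneath vessels and muscle, was at 10.3, 8.96 and 16.4 FPKM in DJ-1 KO OVA, against 3.59, 3.24 and 2.82 FPKM in WT OVA, a 3.24-fold rise (1.69 ± 0.26, limma adjusted p = 0.00719). Nid1, nidogen, which ties laminin to collagen IV, was at 14.0, 4.83 and 15.1 FPKM in DJ-1 KO OVA, against 3.80, 4.80 and 3.68 FPKM in WT OVA. It shows the same low value in DJ1_KO_OVA_266 as the laminins (1.22 ± 0.39, limma adjusted p = 0.0576). The list's median against WT OVA was 0.37. Genes of at least 5000 bases had a median of 0.31 in that comparison, and the part of gene length in this list was not tested. Without DJ1_KO_OVA_266 the list's count called higher was 7, and without WT PBS replicate 3 it was 2. Of 8 other laminin receptors tested 0 rose and 1 fell, against 5.93% and 8.24% of all genes. The gene that fell was the syndecan gene Sdc1, at 38.9, 46.4 and 29.3 FPKM in DJ-1 KO OVA against 77.1, 90.3 and 55.9 FPKM in WT OVA (-0.95 ± 0.24, limma adjusted p = 0.0324). Its call was lost without DJ1_KO_OVA_263 or DJ1_KO_OVA_267, any WT OVA replicate or WT PBS replicate 1, and 3 receptors were lower without DJ1_KO_OVA_266. Of 4 hemidesmosome genes 0 were called by limma and 2 rose by limma-voom. At an unadjusted limma p below 0.05, 2 were higher and 1 lower, against 16.8% and 18.4% of all genes. Without DJ1_KO_OVA_266, 2 were called higher and 1 lower, and without WT PBS replicate 2 or 3, 1 was called higher. The part of gene length in these counts was not tested either. Bcam, a receptor of laminin alpha5, had a difference of -0.999 ± 0.31 that did not pass (limma adjusted p = 0.0533).

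Markers of alveolar and club cells were lower in the libraries in which Sdc1, F11r, Bcam and Lamb3 were low and Cdh1 high. Airway basal cell markers were not. Over all genes tested 5.93% were called higher and 8.24% lower. Of 8 alveolar type 1 markers tested 3 fell and 7 had a difference below 0, and the list summed to 170.1 to 371 FPKM in DJ-1 KO OVA against 472 to 612 FPKM in WT OVA. Of 9 alveolar type 2 markers 2 fell and all 9 were below 0, with a sum of 6360.4 to 13567 FPKM in DJ-1 KO OVA against 32460.5 to 41499.7 FPKM in WT OVA. Of 6 club cell markers 1 fell, Scgb3a2, a secreted airway protein, and all 6 were below 0, with a sum of 24359 to 33099.6 FPKM in DJ-1 KO OVA against 33774 to 105600.9 FPKM in WT OVA. Leaving out single libraries gave 0 to 3, 0 to 3 and 0 to 1 markers lower on these lists. The fewest alveolar type 1 markers were lower without WT OVA replicate 5 or 6, the fewest alveolar type 2 markers without DJ1_KO_OVA_267 or any WT OVA replicate, and the fewest club cell markers without DJ1_KO_OVA_267. Pdpn alone of these lists was below 0.2 FPKM in every library. Of 7 ciliated cell markers 1 fell and 6 had a difference below 0, with 0 to 2 lower on leaving out single libraries. All 5 airway basal cell markers tested had a difference above 0, with a median of 0.40, and 0 passed. The part of these cells in the differences of the epithelial genes was not tested.

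The second comparison asks what OVA challenge did in wild-type lung. No member was called in WT OVA against WT PBS, in either direction, by limma or by limma-voom on the recovered reads, and over all genes 0.00564% were called higher and 0% lower. The direction was nevertheless mostly downward: 5 of the 35 differences were above 0 and 30 below, with a median of -0.27 beside 0.00 over all genes. It was -0.50 with libraries scaled to equal FPKM sums, where the median of all genes was -0.22, -0.29 after quantile normalization and -0.17 with the length trend removed. Without WT PBS replicate 3 it was -0.14. At an unadjusted limma p below 0.05 there were 0 members higher and 2 lower, Itgam and Itgal, against 3.65% and 2.82% of all genes. Itgam was at 6.17, 5.53 and 6.54 FPKM in WT OVA, against 10.6, 8.23 and 16.9 FPKM in WT PBS (-0.86 ± 0.28, limma adjusted p = 0.729). Itgal was at 55.9, 49.3 and 65.5 FPKM in WT OVA, against 97.2, 63.7 and 152 FPKM in WT PBS, and overlapped at the margin (-0.79 ± 0.30, limma adjusted p = 0.729). WT PBS replicate 3 was the highest library for both. Without overlap between the groups, 5 members were lower and 0 higher in WT OVA, against 7.52% and 7.25% of all genes. These were Itgam, Itgad, Itga4, Itgb5 and Lama4. Itgb5 was at 34.6, 32.0 and 29.7 FPKM in WT OVA, against 51.5, 37.2 and 53.5 FPKM in WT PBS.

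The leading beta subunits and all tested laminins but Lama4 overlapped between the wild-type groups. Itgb2 was at 218, 148 and 206 FPKM in WT OVA, against 309, 188 and 336 FPKM in WT PBS. Itgb1 was at 77.8, 81.1 and 99.4 FPKM in WT OVA, against 82.6, 93.6 and 109 FPKM in WT PBS. Itgb7 was at 85.1, 52.8 and 76.2 FPKM in WT OVA, against 89.4, 84.8 and 95.7 FPKM in WT PBS. The WT OVA levels of each reached into the WT PBS range. Lamb2 was at 18.8, 20.6 and 15.8 FPKM in WT OVA, against 22.3, 16.8 and 25.3 FPKM in WT PBS. Lamc1 was at 7.40, 10.4 and 6.99 FPKM in WT OVA, against 11.1, 8.87 and 18.3 FPKM in WT PBS, with replicate 3 again the highest. All 10 laminin chains tested had a difference below 0, from -0.20 for Lama5 to -0.63 for Lamb1. Long genes had a median difference of -0.11 and shorter genes of 0.07 in this comparison. Itgax and Itgae, high in the knockout group, had differences of 0.22 ± 0.46 and 0.18 ± 0.37 between the wild-type groups, with 95% intervals of -0.79 to 1.23 and -0.63 to 0.99.

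The third comparison sets DJ-1 KO OVA against WT PBS, which differ in both genotype and challenge. It shares the knockout libraries with the first comparison, so its calls are not independent of that one. Here 3 members rose, Itgax, Itgae and Itgb3, and 1 fell, Itgad; over all genes 4.07% were called higher and 4.47% lower, 8.54% in all. Itgax was 3.48-fold higher (1.80 ± 0.46, limma adjusted p = 0.0375), Itgae 2.87-fold higher (1.52 ± 0.37, limma adjusted p = 0.0312) and Itgb3 2.02-fold higher (1.01 ± 0.26, limma adjusted p = 0.0418). Itgad was at 0.22, 0.14 and 0.10 FPKM in DJ-1 KO OVA, against 0.95, 0.55 and 0.66 FPKM in WT PBS (-0.90 ± 0.19, limma adjusted p = 0.0216), with the overlap with Cox6a2 as before. The counts without overlap were 4 higher and 5 lower, against 12.7% and 12.9% of all genes. The higher ones were the 3 called genes and Itgb8, and the lower ones Itgad, Itgal, Itgam, Itgb5 and Lamb3. Itga6 overlapped here and did not pass (0.55 ± 0.24, limma adjusted p = 0.175). The members' median was -0.07, with 17 differences above 0 and 18 below, and its sign turned with the scaling and with single libraries. It was 0.23 with libraries scaled to equal FPKM sums, where the median of all genes was 0.24, and 0.07 without DJ1_KO_OVA_263, 0.02 without DJ1_KO_OVA_266 and 0.11 without WT PBS replicate 3. Of the 11 neutrophil markers 9 fell in this comparison and all 11 were lower without overlap, against 12.9% of all genes. Their summed level was 1469 to 4480 FPKM in DJ-1 KO OVA against 8746.5 to 24947 FPKM in WT PBS. The median difference of these markers was -2.35 here and -2.24 against WT OVA, where Itgam and Itgal had differences of -0.01 and -0.06. In WT OVA against WT PBS the marker median was -0.25, with Itgam at -0.86 and Itgal at -0.79. The part of neutrophils in the levels of Itgad, Itgal and Itgam was not tested. The count of members higher was 0 without DJ1_KO_OVA_267, WT OVA replicate 5, WT PBS replicate 1 or WT PBS replicate 2, 1 without WT OVA replicate 9 or WT PBS replicate 3, and 7 without DJ1_KO_OVA_266. The count lower was 0 without DJ1_KO_OVA_267 or WT PBS replicate 1 and 3 without DJ1_KO_OVA_266.

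The members also share features of position. Chromosome 2 carries 7 of them and chromosome 11 carries 5. Besides the Itgam, Itgax and Itgad tandem, Itga2 and Itga1 lie 21 kb apart on the minus strand of chromosome 13. Itgae overlaps Haspin on the opposite strand, which held a mean of 54 reads beside 296 for Itgae.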

How the data were processed

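RNA of lung cells was sequenced in 9 libraries, 3 in each of 3 groups taken from the sample labels. Trimmomatic, HISAT2, HTSeq and GRCm38.p6 are named by the submitters' processing notes; the sources used here give neither tool versions nor roles. The deposited table holds FPKM per gene for 55851 genes, per the file headers. The count model planned for counts was replaced by limma because the deposited unit is FPKM. FPKM times gene length gave whole reads for 100% of values above 0 within 0.01 reads, and these recovered reads give the depths and a limma-voom alternative.

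Values were analysed as log2(FPKM + 0.5) for 17716 genes with a mean of at least 0.2 FPKM, in a single limma-trend fit (limma 3.58.1, R 4.3.3) with 6 residual degrees of freedom, and p-values were adjusted by Benjamini-Hochberg over all genes tested. With 3 libraries a group, the smallest two-sided p of an exact permutation test is 0.1. The test was run on simulated data first. Members are all protein-coding genes named as integrin alpha or beta subunits or laminin chains. Members called in any comparison or with a mean of at least 20 FPKM in a group are given in every library, others by range or, where named after their values were seen, in full; of each pathway list the called genes, with up to 4 in full, were named by rule. Tln1, Vcam1, Icam1, Nid1 and Bcam were named outside that rule. The members, gene lists and markers were chosen with earlier results of these data known. Promoter windows are from RefSeq tables of GRCm38.p6, matched by symbol and cut to the 250 bases before the start. Marker counts without single libraries, marker sums without their leading genes and the split of windows by distance were added after seeing the data. Alternatives changed the pseudocount, the filter, the scaling, the length trend, the variance model and the libraries used. A few genes are counted in the totals but not reported here.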

Additional observations from a re-analysis of the deposited data

How the results depend on the processing

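No alternative reversed a call. Between the OVA groups, the 4 members called higher became 0 with no filter on low values, 13 with libraries rescaled to equal FPKM sums, 1 with the length trend removed and 1 with only the 6 libraries compared; leaving out single libraries gave 0 to 11. Members called lower were 1 by limma-voom, and 0 to 0 on leaving out libraries. Equal sums moved the median of all genes by 0.46 in that comparison and turned calls over all genes from 1051 higher and 1459 lower into 4432 and 602. Set against WT PBS, knockout members higher were 0 with no filter and 0 with only 6 libraries, and members lower 0 with a filter at 1 FPKM, 0 with equal sums and 5 with the length trend removed; leaving out libraries gave 0 to 7 higher and 0 to 3 lower. WT OVA against WT PBS stayed at 0 and 0 members in every alternative run.

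The pathway lists were read under the same alternatives, which were chosen after seeing the data. Equal sums gave 4 machinery genes higher and 0 lower, 0 ligands lower, 8 partners higher, 2 other receptors higher and 0 lower, and 2 hemidesmosome genes higher. The filter at 1 FPKM gave 2 machinery genes lower, 2 partners higher, 2 receptors lower and 1 hemidesmosome gene higher. With no filter 0 machinery genes, 0 ligands and 0 receptors were lower, and likewise 0, 0 and 0 with only 6 libraries. Quantile normalization gave 2 machinery genes lower, 0 ligands lower, and 1 receptor higher and 0 lower. Removing the length trend gave 0 ligands lower and 2 receptors lower, and no variance trend 2 receptors lower. Limma-voom gave 2 machinery genes, 2 ligands and 2 receptors lower, and 3 partners and 2 hemidesmosome genes higher. Leaving out libraries gave 0 to 1 machinery genes higher and 0 to 4 lower, 3 to 10 ligands higher and 0 to 2 lower, 1 to 7 partners higher, 0 to 3 receptors lower, and 0 to 2 hemidesmosome genes higher and 0 to 1 lower. The cause of these shifts was not tested. No paired analysis was possible because the groups share no replicate numbers.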
